A study of Homo sapiens with 6 samples.

Results

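The HOX genes of the 4 human clusters were followed in liver metastases of SW480, a long-used line of human colorectal cancer cells, in which the calcium channel gene ITPR3 had been targeted. The rows were found by gene symbol. They are 38 genes of the 58884 in the counts table, of which 10 lie in cluster A on chromosome 7, 10 in cluster B on chromosome 17, 9 in cluster C on chromosome 12 and 9 in cluster D on chromosome 2. Of these, 32 passed the filter on low counts and were tested. The 6 that did not pass were HOXB1, HOXC5, HOXC12, HOXD3, HOXD4 and HOXD12.

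HOX genes encode homeodomain transcription factors that tell cells of an embryo where they lie along the head to tail axis. Within a cluster all genes are read in the same direction, and low numbers, at the 3' end, are used early and toward the head, while high numbers, at the 5' end, are used late and toward the tail. Genes that share a number in different clusters are paralogs from duplications of 1 ancestral cluster. Adult gut epithelium keeps a regional HOX pattern, and HOX proteins bind DNA with TALE cofactors of the PBX and MEIS families. Trithorax proteins of the KMT2A (MLL) type keep HOX genes active, Polycomb proteins keep them silent, and retinoic acid induces genes of the 3' side.

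The metastases came from SW480 cells with a guide RNA against ITPR3 (sgITPR3, 3 libraries), set against SW480 cells with a control guide (sgCtrl, 3 libraries). Per the labels, loss of the ITPR3 protein was checked by Western blot. Cells of both kinds were given into the portal blood of immunodeficient NSG mice and recovered from the liver by collagenase digestion, a density gradient and depletion of mouse cells. The labels name no clone, guide sequence or animal for a library, so p-values measure the spread between these libraries, which may be technical. RNA was measured as tags from the 3' ends of polyadenylated transcripts. A transcript gives about 1 tag whatever its length, so levels are given as CPM, the count divided by the scaled library total and multiplied by 1000000, and were not divided by gene length. A lower level can come from fewer transcripts per cell or from fewer cells that hold them, which cannot be told apart in bulk RNA.

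Totals were 19140055 to 23943797 counts in the sgITPR3 libraries and 19255242 to 20049117 counts in the sgCtrl libraries, and 3 counts corresponded to 0.121 to 0.161 CPM. ITPR3 itself was at 39.4, 41.03 and 46.2 CPM in sgITPR3, against 108, 93.9 and 94.2 CPM in sgCtrl (log2 fold change -1.22 with SE 0.0831, adjusted p = 1.28e-07 by edgeR). The sources used here do not give the place of the edit relative to its tag. Of 10 colon epithelial markers 7 were tested, and their sum was 2026 to 2079.9 CPM in sgITPR3 against 2410.2 to 2798 CPM in sgCtrl, with the keratins and EPCAM abundant and KRT20, LGALS4 and CDX1 at means under 1 CPM. The markers did not move together: EPCAM, KRT8 and KRT19 fell, while CDX2 and VIL1 rose, VIL1 being at 36.7 ± 1.19 CPM in sgITPR3 and 3.18 ± 0.821 CPM in sgCtrl (log2 fold change 3.52, adjusted p = 1.30e-09 by edgeR). The 12 hepatocyte markers summed to 149.9 to 300.4 CPM in sgITPR3 and 66.2 to 250.1 CPM in sgCtrl, the highest sgCtrl value being that of replicate 2, and APOC3 was at 0 in every library. The 3 erythroid markers summed to 4.75 to 6.39 CPM in sgITPR3 and 0.587 to 1.29 CPM in sgCtrl. Macrophage markers (6 genes) summed to at most 2.02 CPM in sgITPR3 and 2.26 CPM in sgCtrl, and endothelial markers (5 genes) to at most 0.722 CPM in sgITPR3 and 0.645 CPM in sgCtrl. Leukocyte markers (3 genes, MS4A1 at 0) summed to at most 0.734 CPM in sgITPR3 and 0.694 CPM in sgCtrl. Fibroblast markers (7 genes, LUM at 0) summed to 20.6 to 23.2 CPM in sgITPR3 and 18.1 to 19.5 CPM in sgCtrl. The part of these markers in the HOX results was not tested beyond a fit with the level of ALB, the main hepatocyte marker, in the model, which left 1012 of all genes higher and 995 lower.

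SW480 metastases expressed HOX genes of all 4 clusters, with the largest share of tags in cluster B and in the central paralogs. All clusters together reached 1135, 1159.6 and 1242 CPM in the sgITPR3 libraries, against 1144, 1122 and 1195 CPM in the sgCtrl libraries, so the sums of both groups overlapped. In sgITPR3 libraries cluster B held 54.3 ± 0.914% of the HOX counts, cluster A 21.1 ± 0.266%, cluster C 19.4 ± 0.837% and cluster D 5.15 ± 0.0785% (SD, n = 3). In sgCtrl libraries the shares were 49.1 ± 1.02% for B, 26.9 ± 0.284% for A, 19.3 ± 0.888% for C and 4.66 ± 0.340% for D. By position, the central paralogs 4 to 8 held 60.2 ± 0.207% of HOX counts in sgITPR3 and 59.5 ± 0.747% in sgCtrl. The posterior paralogs 9 to 13 held 27.5 ± 0.223% in sgITPR3 and 28.9 ± 0.719% in sgCtrl, and the anterior paralogs 1 to 3 held 12.3 ± 0.311% in sgITPR3 and 11.6 ± 0.368% in sgCtrl. The posterior share of each sgITPR3 library lay below that of each sgCtrl library.

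The most abundant HOX gene over all 6 libraries was HOXB5, at a mean of 109 CPM, a level above that of 90.4% of all genes tested. HOXB7, HOXB3, HOXB6 and HOXB8 followed at 99.7, 93.5, 88.8 and 82.5 CPM, and then HOXA9 and HOXA7 at 77.3 and 71.3 CPM. In the other clusters the highest levels were those of HOXC6 (53.8 CPM) and HOXD11 (24.2 CPM). The median level of the 32 tested HOX genes was 31.4 CPM, against 14.4 CPM for all genes tested. At the low end, HOXD12 had no count in any library, which allows up to 0.121 to 0.161 CPM by counting error alone. HOXB1 had 0, 2 and 2 counts in the sgITPR3 libraries, against 0, 1 and 0 counts in the sgCtrl libraries, HOXD3 had 6, 5 and 7 counts in the sgITPR3 libraries, against 2, 2 and 0 counts in the sgCtrl libraries, and HOXD4 had 5, 9 and 5 counts in the sgITPR3 libraries, against 1, 3 and 3 counts in the sgCtrl libraries. HOXC5 had 14, 6 and 6 counts in the sgITPR3 libraries, against 1, 6 and 5 counts in the sgCtrl libraries, and HOXC12 had 27, 26 and 9 counts in the sgITPR3 libraries, against 9, 4 and 6 counts in the sgCtrl libraries. None of these 6 reached more than 27 counts in a library.

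**Figure D1:**
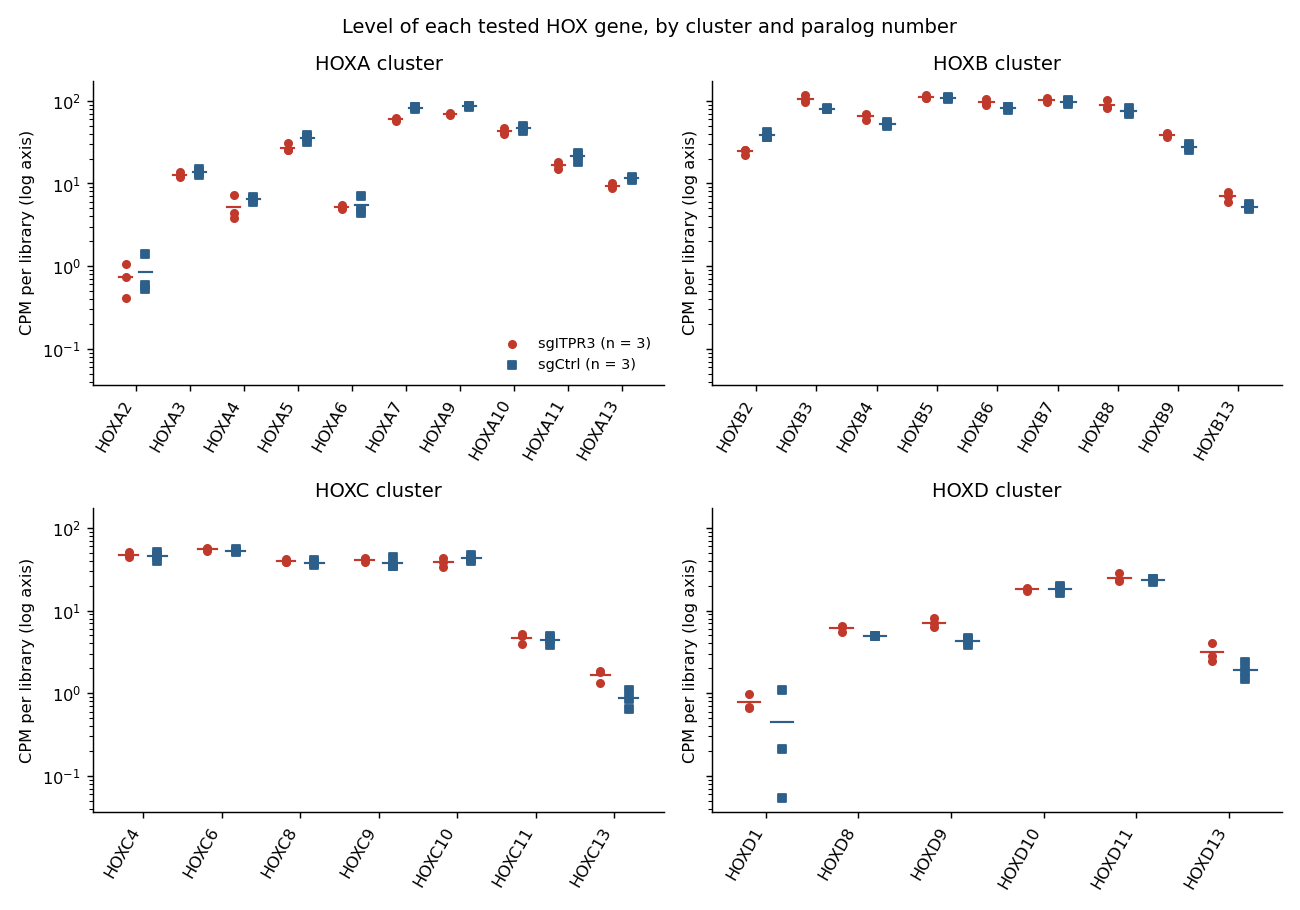
Level of each of the 32 tested HOX genes in CPM per library on a log axis, with sgITPR3 libraries as circles and sgCtrl libraries as squares, short lines at the group means (n = 3 each), and genes ordered by paralog number within each cluster. By the mean over all 6 libraries HOXB3 and HOXB5 to HOXB8 stand highest, and HOXB4 is lower at 58.6 CPM. In cluster A the level is highest at HOXA7 and HOXA9, where the sgITPR3 circles lie below the sgCtrl squares.

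The HOX genes that differed between sgITPR3 and sgCtrl metastases lay mostly in clusters A and B, and in opposite directions, with falls in A and, apart from HOXB2, rises in B. Of the 32 HOX genes tested, 5 rose (HOXB3, HOXB4, HOXB6, HOXB9 and HOXD9) and 5 fell (HOXA5, HOXA7, HOXA9, HOXA11 and HOXB2), and 22 did not pass an edgeR adjusted p under 0.05. Among all 15804 genes tested, 11.6% rose and 11.9% fell, so the 15.6% of HOX genes in each direction were close to the background, and the family as a whole did not stand out by number of calls. The median log2 fold change of the tested HOX genes was 0.064, against 0.00086 for all genes tested. The sgITPR3 libraries lay wholly above the sgCtrl libraries for 10 HOX genes and wholly below for 5, where 19.6% and 19.7% of all genes tested did so. Without sgITPR3 replicate 2, 3 HOX genes rose and 3 fell, and without sgITPR3 replicate 1, 3 fell. With ALB in the model 3 fell. Without sgCtrl replicate 2, the sgCtrl library richest in hepatocyte RNA, 6 rose and 4 fell. HOXD1 was tested only because all its sgITPR3 libraries, with 1 sgCtrl library, reached the minimum.

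By cluster, all 10 genes of A were tested, of which 4 fell, 0 rose and 6 did not pass, with every log2 fold change below 0 (median -0.31, range -0.46 to -0.081). In cluster B 4 of 9 tested genes rose, 1 fell and 4 did not pass (median 0.25, range -0.65 to 0.48). In cluster C none of 7 tested genes passed by edgeR (median 0.065), though HOXC13 passed in 3 of 14 other settings. In cluster D 1 of 6 tested genes rose and 5 did not pass (median 0.52). The mean sum of each cluster went in the same direction as its median, but the sums did not rank D above B. Cluster A reached 240.5, 241 and 264 CPM in the sgITPR3 libraries, against 307, 305 and 319 CPM in the sgCtrl libraries, and the groups did not overlap. Cluster B reached 605, 639 and 677 CPM in the sgITPR3 libraries, against 574, 540.3 and 584 CPM in the sgCtrl libraries, again without overlap but with sgITPR3 on the upper side. Cluster C, at 232, 219 and 237 CPM in the sgITPR3 libraries, against 210.1, 219.7 and 240.2 CPM in the sgCtrl libraries, overlapped between groups. Cluster D reached 57.6, 60.7 and 63.7 CPM in the sgITPR3 libraries, against 52.8, 56.3 and 51.9 CPM in the sgCtrl libraries, with all sgITPR3 libraries above. The sgITPR3 mean was 0.801 times the sgCtrl mean in A, 1.13 times in B, 1.03 times in C and 1.13 times in D. These sums are given as descriptions, without a test.

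**Figure D2:**
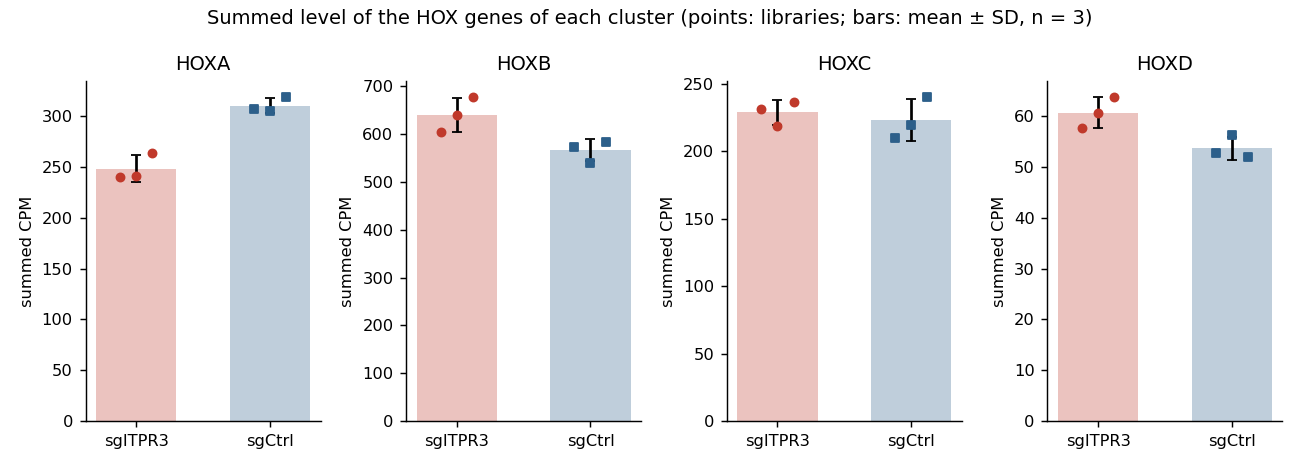
Summed CPM of the HOX genes of each cluster, with sgITPR3 left and sgCtrl right, points for libraries and bars for the mean ± SD (n = 3 each). Each cluster has its own axis from 0. The sgITPR3 points lie below the sgCtrl points in cluster A, above them in clusters B and D, and among them in cluster C.

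**Figure D3:**
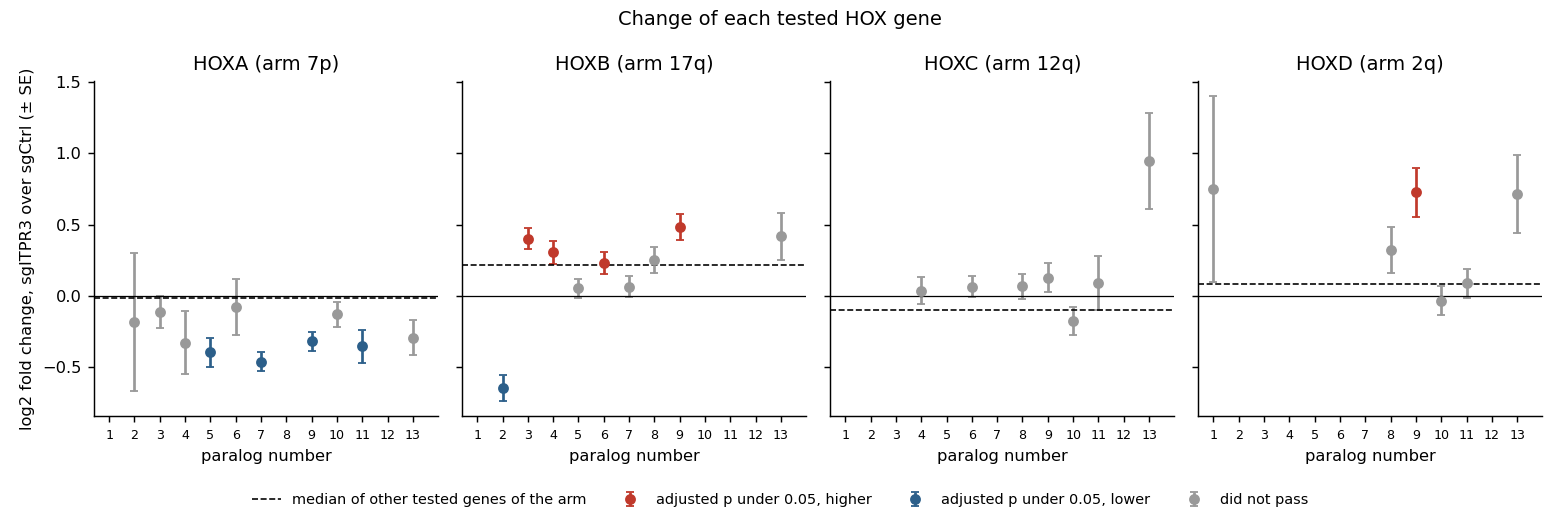
Log2 fold change of each tested HOX gene (sgITPR3 over sgCtrl, ± SE) against its paralog number, coloured by the edgeR call. The dashed line is the median of the other tested genes of the chromosome arm. The 10 genes of cluster A all lie below 0, and in cluster B HOXB2 lies at -0.65 beside HOXB3 at 0.40.

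Cluster A (chromosome 7, 27100354 to 27200106, GRCh38, minus strand) held the falls of HOXA5, HOXA7, HOXA9 and HOXA11. HOXA7, a central gene that patterns the trunk, was at 59.5, 57.7 and 62.8 CPM in sgITPR3, against 83.1, 79.5 and 85.05 CPM in sgCtrl. The groups did not overlap, and HOXA7 was 1.38-fold lower in sgITPR3 (log2 fold change -0.46 with SE 0.0691, adjusted p = 0.000242 by edgeR). HOXA9, best known for its part in blood stem cells and leukaemia, was at 66.8, 68.8 and 70.7 CPM in sgITPR3, against 87.02, 85.7 and 84.9 CPM in sgCtrl, again without overlap (log2 fold change -0.32 with SE 0.0654, adjusted p = 0.00269 by edgeR). HOXA5, which in mouse gut has been described as acting against the stem cell state, was at 25.4, 25.3 and 30.6 CPM in sgITPR3, against 38.9, 31.9 and 36.1 CPM in sgCtrl (log2 fold change -0.40 with SE 0.102, adjusted p = 0.0113 by edgeR). Its sgITPR3 replicate 3 came closest to the lowest sgCtrl library. HOXA11, a gene of kidney, uterus and forelimb, was at 15.2, 16.6 and 18.3 CPM in sgITPR3, against 18.2, 22.1 and 23.5 CPM in sgCtrl, and the highest sgITPR3 library lay above the lowest sgCtrl library (log2 fold change -0.35 with SE 0.116, adjusted p = 0.0390 by edgeR). The call of HOXA11 ended in 4 of 6 fits with a library left out, without sgCtrl replicate 2 or 3 (adjusted p = 0.0680 and 0.148) and without sgITPR3 replicate 1 or 2 (0.153 and 0.108). That of HOXA5 ended without sgITPR3 replicate 1 or 2 (adjusted p = 0.0570 and 0.0644), and both ended once ALB was in the model (log2 fold change -0.24 for HOXA5 with adjusted p = 0.224, -0.33 for HOXA11 with adjusted p = 0.174).

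The other genes of cluster A lay below 0 without passing. HOXA13, the hindgut and digit gene at the 5' end, was at 9.28, 8.78 and 10.2 CPM in sgITPR3, against 11.9, 11.8 and 10.9 CPM in sgCtrl, and its groups did not overlap although the test was not passed (log2 fold change -0.29, adjusted p = 0.0973 by edgeR). HOXA10, a gene of uterus and lumbar spine between HOXA9 and HOXA11, was at 41.97, 39.8 and 46.9 CPM in sgITPR3, against 43.5, 47.2 and 50.1 CPM in sgCtrl (log2 fold change -0.13, adjusted p = 0.297 by edgeR). The groups of HOXA10 overlapped, so the fall of its neighbours on both sides was not seen beyond the spread at this gene. HOXA3 was at 12.4, 13.6 and 12.01 CPM in sgITPR3, against 12.8, 14.8 and 13.6 CPM in sgCtrl (log2 fold change -0.11, adjusted p = 0.515 by edgeR). HOXA4 was at 3.80, 4.41 and 7.32 CPM in sgITPR3, against 6.40, 6.02 and 6.94 CPM in sgCtrl (log2 fold change -0.33, adjusted p = 0.308 by edgeR), and without sgITPR3 replicate 3, its highest sgITPR3 library, the log2 fold change was -0.65 (edgeR adjusted p = 0.0307). The groups of both genes overlapped. HOXA6 was at 5.44, 4.98 and 5.0002 CPM in sgITPR3, against 4.36, 4.92 and 7.05 CPM in sgCtrl (log2 fold change -0.081, adjusted p = 0.809 by edgeR), and HOXA2 was near the limit of detection at 0.734, 1.05 and 0.412 CPM in sgITPR3, against 0.592, 1.39 and 0.534 CPM in sgCtrl (log2 fold change -0.18, adjusted p = 0.827 by edgeR). HOXA6 stood at a lower level than its neighbours HOXA5 and HOXA7 in both groups. Of the 3 protein-coding genes within 500 kb of the cluster, SKAP2 fell (log2 fold change -0.24, adjusted p = 0.0204 by edgeR) and EVX1 and HIBADH did not pass (log2 fold change 0.46 and -0.22). The SKAP2 call ended without sgCtrl replicate 3 (adjusted p = 0.0664), without sgITPR3 replicate 1, 2 or 3 (0.0539, 0.0688 and 0.0677) and with ALB in the model (0.0760, log2 fold change -0.25).

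The promoters of the fallen genes HOXA7, HOXA9 and HOXA11, and of HOXA10 between them, are shown because these neighbours differed in whether they passed. RefSeq (GRCh38.p14) promoters were matched for 20 of the 38 HOX genes, HOXA5 and the genes HOXB2 to HOXB9 not being among them. Each line gives the 250 bases before the RefSeq start in the direction of transcription, with capitals at matches, on either strand, to the CCAAT box bound by NF-Y (CCAAT or ATTGG), the TATA box (TATAAA or TTTATA), the CDX motif (TTTATG or CATAAA) and a PBX-HOX motif (TGATTNAT or ATNAATCA).
HOXA7 promoter, chr7:27156676-27156925, - strand: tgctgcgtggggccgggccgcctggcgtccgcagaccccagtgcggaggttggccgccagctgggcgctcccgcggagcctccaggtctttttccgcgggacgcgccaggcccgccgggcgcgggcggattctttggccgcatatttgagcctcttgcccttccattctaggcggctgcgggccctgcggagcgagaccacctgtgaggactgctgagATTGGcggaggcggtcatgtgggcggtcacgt
HOXA9 promoter, chr7:27165538-27165787, - strand: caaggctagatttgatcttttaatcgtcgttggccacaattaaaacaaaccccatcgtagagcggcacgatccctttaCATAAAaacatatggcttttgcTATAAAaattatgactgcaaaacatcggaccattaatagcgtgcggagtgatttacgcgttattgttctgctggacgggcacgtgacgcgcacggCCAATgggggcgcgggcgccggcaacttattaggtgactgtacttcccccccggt
HOXA10 promoter, chr7:27179862-27180111, - strand: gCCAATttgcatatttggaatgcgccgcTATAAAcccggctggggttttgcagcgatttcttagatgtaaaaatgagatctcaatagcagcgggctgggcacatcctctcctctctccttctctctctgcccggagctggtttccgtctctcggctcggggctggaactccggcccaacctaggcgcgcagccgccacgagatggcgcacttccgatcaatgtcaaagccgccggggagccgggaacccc
HOXA11 promoter, chr7:27185233-27185482, - strand: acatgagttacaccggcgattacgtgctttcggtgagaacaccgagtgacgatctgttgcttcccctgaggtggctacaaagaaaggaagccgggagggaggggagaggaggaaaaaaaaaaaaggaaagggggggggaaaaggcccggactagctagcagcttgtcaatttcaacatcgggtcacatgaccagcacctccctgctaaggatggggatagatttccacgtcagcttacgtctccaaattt
The HOXA9 window held a CDX motif starting 172 bases before the start, a TATA box at 150 and a CCAAT box at 55, none of which overlapped. The HOXA7 window held a CCAAT box at 32 bases, the HOXA10 window a TATA box at 222 and a CCAAT box at 249, and the HOXA11 window no match. HOXC4 and HOXC5 have the same window, which leaves 19 distinct HOX windows. Of these, 16 held a CCAAT box, 4 a TATA box, 3 a CDX motif and 2 a PBX-HOX motif. Among all 34788 distinct RefSeq windows of the same length the shares were 32.02% for the CCAAT box, 10.8% for the TATA box, 9.65% for the CDX motif and 2.48% for the PBX-HOX motif. The windows also differed in CpG dinucleotides, with 28 for HOXA7, 20 for HOXA9, 19 for HOXA10 and 11 for HOXA11. A match is a run of letters and says nothing of whether a factor was bound.

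Cluster B (chromosome 17, 48528526 to 48729178, minus strand) was the most abundant cluster and the only one with calls in both directions. HOXB2, at the 3' side and known for its part in the hindbrain, was at 25.3, 25.5 and 22.3 CPM in sgITPR3, against 41.4, 36.7 and 36.8 CPM in sgCtrl. This was the largest change of a called HOX gene on the log2 scale apart from HOXD9, 1.57-fold lower in sgITPR3 without overlap (log2 fold change -0.65 with SE 0.0899, adjusted p = 0.000125 by edgeR). Its neighbour HOXB3, also a hindbrain and neck gene, went the other way, at 97.6, 106 and 116 CPM in sgITPR3, against 79.7, 79.3 and 82.8 CPM in sgCtrl, and its groups did not overlap either (log2 fold change 0.40 with SE 0.0745, adjusted p = 0.00141 by edgeR). The ratio of HOXB2 to HOXB3 counts was 0.260, 0.242 and 0.192 in the sgITPR3 libraries and 0.519, 0.463 and 0.445 in the sgCtrl libraries. Being a ratio within a library, it does not depend on the scaling.

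HOXB4, whose protein is used to expand blood stem cells, was at 57.95, 69.2 and 67.1 CPM in sgITPR3, against 55.6, 49.8 and 52.1 CPM in sgCtrl (log2 fold change 0.30 with SE 0.0822, adjusted p = 0.0152 by edgeR). HOXB6 was at 88.7, 94.04 and 105 CPM in sgITPR3, against 83.5, 78.01 and 83.6 CPM in sgCtrl (log2 fold change 0.23 with SE 0.0754, adjusted p = 0.0391 by edgeR). HOXB9, the most posterior gene of the main block and a thoracic patterning gene, was at 36.3, 39.2 and 40.7 CPM in sgITPR3, against 27.7, 25.3 and 30.1 CPM in sgCtrl (log2 fold change 0.48 with SE 0.0896, adjusted p = 0.00134 by edgeR). In all of these the sgITPR3 libraries lay above the sgCtrl libraries, by the smallest margin for HOXB4. HOXB8 was at 82.96, 84.3 and 102 CPM in sgITPR3, against 73.9, 69.7 and 82.2 CPM in sgCtrl without overlap but did not pass (log2 fold change 0.25, adjusted p = 0.0549 by edgeR). HOXB13, a hindgut and prostate gene that stands apart at the 5' end, was at 6.003, 6.96 and 7.99 CPM in sgITPR3, against 4.89, 5.62 and 5.13 CPM in sgCtrl, also without overlap and without passing (log2 fold change 0.42, adjusted p = 0.0835 by edgeR). The groups of the most abundant genes of the cluster overlapped. HOXB5 was at 109, 118 and 108 CPM in sgITPR3, against 108, 104 and 111 CPM in sgCtrl (log2 fold change 0.053, adjusted p = 0.617 by edgeR), and HOXB7 was at 101, 96.03 and 108 CPM in sgITPR3, against 99.8, 91.4 and 101 CPM in sgCtrl (log2 fold change 0.065, adjusted p = 0.565 by edgeR). The HOXB6 call ended in 5 of 6 fits with a library left out (adjusted p = 0.0665, 0.0946 and 0.0681 without sgCtrl replicates 1, 2 and 3, and 0.0954 and 0.165 without sgITPR3 replicates 2 and 3), and that of HOXB4 without sgITPR3 replicate 2 or 3 (0.0956 and 0.0577). HOXB8 passed without sgCtrl replicate 3 (adjusted p = 0.0349), with ALB in the model (0.0121), with DESeq2 (0.0444) and in 3 other settings.

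The rises in cluster B stood on an arm whose other genes were also higher. The 722 other tested genes of 17q had a median log2 fold change of 0.22, and 29.4% of them rose and 4.29% fell, against 11.6% and 11.9% of all genes. On 7p, 12q and 2q the medians were -0.016, -0.10 and 0.085. Other tested genes of 7p fell in 14.3% and rose in 7.34% of cases. Nearer to cluster A the medians were lower than that of the arm. Within 1 Mb the median was -0.15, with 3 of 16 genes lower and 1 higher. Within 5 Mb it was -0.10, with 8 of 58 lower and 5 higher. The lower genes of both windows include HOTAIRM1, which starts just outside the span of the HOX genes. It is described below among the other genes of cluster A. Of the 16 protein-coding genes within 500 kb of cluster B, 11 were tested, all with a log2 fold change above 0 (median 0.26), and 4 rose. Among them SKAP1, which encodes an adaptor of immune cell signalling, was at 31.4 ± 2.44 CPM in sgITPR3 and 14.7 ± 1.27 CPM in sgCtrl (log2 fold change 1.09, adjusted p = 2.78e-06 by edgeR), and NFE2L1 and CALCOCO2 had log2 fold changes of 0.29 and 0.28 (adjusted p = 0.00778 and 0.00848 by edgeR). When the log2 fold changes were measured from the median of the arm, HOXB9 kept its call at 0.27 (adjusted p = 0.0437), and HOXB2 lay at -0.87 (adjusted p = 9.11e-06). HOXB3, HOXB4 and HOXB6 were then at 0.18, 0.087 and 0.013 and their calls ended (adjusted p = 0.0915, 0.488 and 0.922). HOXB5 and HOXB7 lay below the arm, at -0.16 and -0.15, without passing. The 4 calls in cluster A and that of HOXD9 were kept under this measure, which was chosen after the data were seen. The lower medians nearer to cluster A were not tried as null value. Whether the number of copies of 17q differed between the cell populations was not tested.

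Cluster C (chromosome 12, 53938765 to 54056030, plus strand) had no gene that passed. HOXC6 was at 56.96, 52.6 and 55.4 CPM in sgITPR3, against 52.2, 50.5 and 55.2 CPM in sgCtrl (log2 fold change 0.063, adjusted p = 0.579 by edgeR), HOXC4 at 45.6, 44.8 and 50.8 CPM in sgITPR3, against 40.1, 51.4 and 46.2 CPM in sgCtrl (log2 fold change 0.035, adjusted p = 0.829 by edgeR), and HOXC8 at 42.4, 38.2 and 38.2 CPM in sgITPR3, against 37.4, 35.2 and 41.003 CPM in sgCtrl (log2 fold change 0.065, adjusted p = 0.631 by edgeR). These are the central genes of the cluster, and their groups overlapped. HOXC9 was at 39.04, 42.9 and 42.4 CPM in sgITPR3, against 34.2, 34.95 and 44.6 CPM in sgCtrl (log2 fold change 0.13, adjusted p = 0.393 by edgeR). HOXC10, a gene of lumbar and hindlimb position, was at 38.7, 33.4 and 42.9 CPM in sgITPR3, against 40.1, 42.3 and 47.3 CPM in sgCtrl (log2 fold change -0.17, adjusted p = 0.225 by edgeR). HOXC11 was at 5.27, 3.97 and 4.90 CPM in sgITPR3, against 4.89, 3.88 and 4.48 CPM in sgCtrl (log2 fold change 0.091, adjusted p = 0.776 by edgeR), so none of the posterior genes up to HOXC11 separated the groups. HOXC13, a hair follicle gene at the 5' end, was low, at 1.81, 1.86 and 1.34 CPM in sgITPR3, against 0.645, 1.09 and 0.854 CPM in sgCtrl without overlap (log2 fold change 0.95 with SE 0.336, adjusted p = 0.0549 by edgeR). It passed without sgCtrl replicate 2 (log2 fold change 1.15, adjusted p = 0.0408), with a filter of 1 CPM in 3 libraries (0.0429) and against the median of 12q (0.0362). The genes around this cluster were lower in sgITPR3, with 6 falls, 0 rises and 9 that did not pass among 15 tested within 500 kb (median log2 fold change -0.20). Of the other tested genes of 12q, 17.1% fell and 7.04% rose, and within 5 Mb of the cluster 49 of 189 fell and 13 rose. Among them were ZNF385A (log2 fold change -0.97), PRR13 (-0.40) and ITGA5, which encodes a fibronectin receptor chain (-0.37), with adjusted p = 0.00793 by edgeR for ITGA5 and 0.0504 without sgITPR3 replicate 1.

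Cluster D (chromosome 2, 176092891 to 176190907, plus strand) was the least abundant. HOXD9 was at 6.30, 8.05 and 7.11 CPM in sgITPR3, against 4.41, 4.72 and 3.84 CPM in sgCtrl (log2 fold change 0.73 with SE 0.171, adjusted p = 0.00689 by edgeR). It was 1.65-fold higher in sgITPR3 without overlap, and this call was lost once ALB was in the model (log2 fold change 0.65, adjusted p = 0.0759). HOXD8 was at 6.35, 6.60 and 5.46 CPM in sgITPR3, against 4.95, 4.92 and 4.91 CPM in sgCtrl without overlap (log2 fold change 0.32, adjusted p = 0.177 by edgeR). HOXD10 was at 17.1, 18.3 and 18.7 CPM in sgITPR3, against 16.5, 19.99 and 18.7 CPM in sgCtrl (log2 fold change -0.034, adjusted p = 0.852 by edgeR), and HOXD11 was at 22.6, 23.5 and 28.7 CPM in sgITPR3, against 24.4, 23.8 and 22.2 CPM in sgCtrl (log2 fold change 0.086, adjusted p = 0.598 by edgeR). The highest levels of the cluster, those of HOXD10 and HOXD11, thus overlapped between groups. HOXD13, a gene of digits and hindgut, was at 4.10, 2.79 and 2.47 CPM in sgITPR3, against 2.37, 1.49 and 1.87 CPM in sgCtrl without overlap (log2 fold change 0.72, adjusted p = 0.0743 by edgeR). HOXD1 was at 0.691, 0.971 and 0.670 CPM in sgITPR3, against 0.0538, 1.09 and 0.214 CPM in sgCtrl (log2 fold change 0.75, adjusted p = 0.446 by edgeR). Its sgCtrl replicate 2 lay above all sgITPR3 libraries, and without that library it passed (log2 fold change 2.49, adjusted p = 0.0136). Of the flanking genes LNPK and MTX2 were tested and did not pass (log2 fold change 0.18 and -0.089).

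Set by paralog number, opposite changes in different clusters offset each other in some groups. In group 9, HOXA9 fell (log2 fold change -0.32), HOXB9 and HOXD9 rose (0.48 and 0.73) and HOXC9 did not pass (0.13). The sum of the 4 paralogs was 156 ± 6.65 CPM in sgITPR3 and 156 ± 6.77 CPM in sgCtrl (SD, n = 3 each), so the total stayed level while its makeup changed. The ratio of HOXA9 to HOXB9 counts was 1.84, 1.75 and 1.74 in the sgITPR3 libraries and 3.14, 3.39 and 2.82 in the sgCtrl libraries. In group 7, where HOXA7 fell and HOXB7 did not pass, the sum was 162 ± 8.82 CPM in sgITPR3 and 180.1 ± 8.10 CPM in sgCtrl. The ratio of HOXA7 to HOXB7 counts was 0.586, 0.601 and 0.579 in the sgITPR3 libraries and 0.833, 0.871 and 0.840 in the sgCtrl libraries, with no overlap. Groups 2 and 3 each rested on 1 gene of cluster B. The sum of group 2, nearly all of it HOXB2, was 25.1 ± 2.08 CPM in sgITPR3 and 39.2 ± 2.45 CPM in sgCtrl, and that of group 3, most of it HOXB3, was 119 ± 9.05 CPM in sgITPR3 and 94.4 ± 1.89 CPM in sgCtrl. Group 5 summed to 139 ± 4.53 CPM in sgITPR3 and 143 ± 5.83 CPM in sgCtrl, with overlap, and group 13 to 21.2 ± 0.808 CPM in sgITPR3 and 19.5 ± 0.640 CPM in sgCtrl, without overlap.

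**Figure D4:**
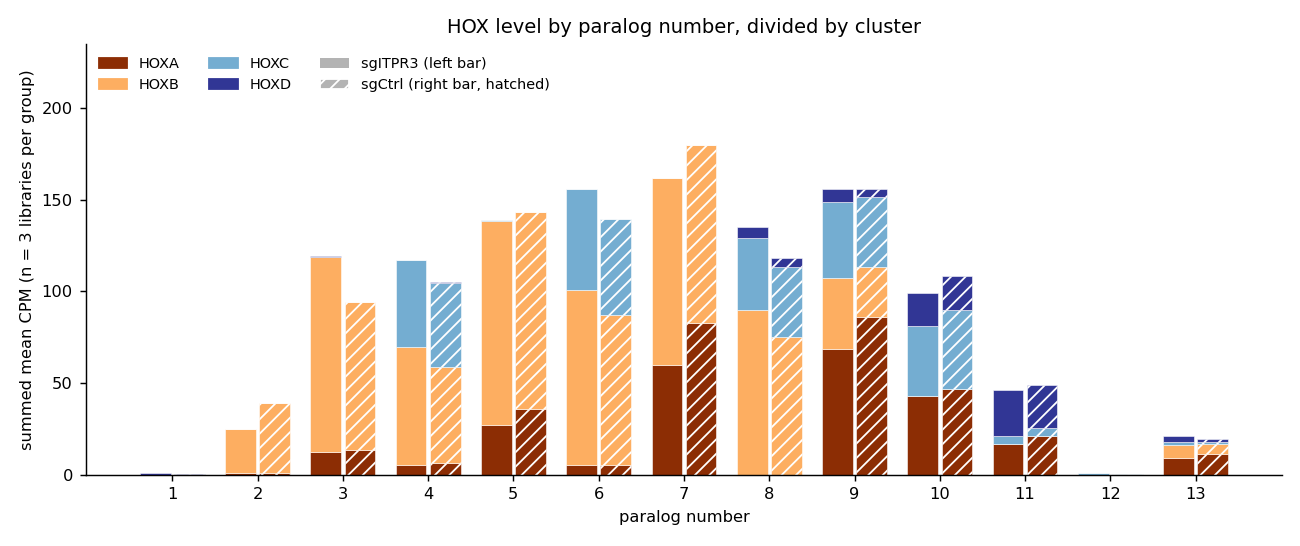
Summed mean CPM (n = 3 libraries per group) of the HOX genes of each paralog number, divided by cluster, with sgITPR3 as the left bar and sgCtrl as the right, hatched bar. Number 9 has the same height in both groups (156 and 156 CPM) with less HOXA and more HOXB in sgITPR3, and number 2 is lower and number 3 higher in sgITPR3.

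Each cluster also holds other genes, most of them non-coding and many antisense to HOX genes. Of the 57 matched from a list, 52 are annotated as other than protein-coding, and 19 of these passed the filter. Of the 19, 3 rose, 3 fell and 13 did not pass, which is 15.8% in each direction, where 11.6% of all genes rose and 11.9% fell. Of the 5 protein-coding ones PRAC2 alone was tested, did not pass, and is named after its value was seen. The falls were all in cluster A. HOXA10-AS, which overlaps exons of HOXA9 and HOXA10 on the opposite strand, was at 29.2, 24.7 and 31.6 CPM in sgITPR3, against 48.8, 49.5 and 51.2 CPM in sgCtrl (log2 fold change -0.81 with SE 0.0926, adjusted p = 2.24e-05 by edgeR). HOXA11-AS was at 5.57, 4.65 and 4.95 CPM in sgITPR3, against 8.44, 10.2 and 7.47 CPM in sgCtrl (log2 fold change -0.79 with SE 0.164, adjusted p = 0.00318 by edgeR), and HOTAIRM1, a myeloid-linked RNA beside the 3' end of the cluster, at 16.1, 14.9 and 17.6 CPM in sgITPR3, against 18.9, 22.9 and 26.96 CPM in sgCtrl (log2 fold change -0.50 with SE 0.125, adjusted p = 0.00950 by edgeR). All 3 were lower in each sgITPR3 library than in any sgCtrl library, and the call of HOTAIRM1 ended without sgCtrl replicate 3 (adjusted p = 0.0524), without sgITPR3 replicate 2 (0.0509) and with ALB in the model (0.0794, log2 fold change -0.44). The rises were in clusters C and D. HOXC-AS2 was at 7.43, 4.82 and 5.36 CPM in sgITPR3, against 4.09, 3.23 and 3.42 CPM in sgCtrl (log2 fold change 0.71 with SE 0.207, adjusted p = 0.0219 by edgeR). HAGLR, an RNA antisense to the 3' side of HOXD, was at 22.02, 21.6 and 19.7 CPM in sgITPR3, against 18.6, 15.6 and 14.6 CPM in sgCtrl (log2 fold change 0.38 with SE 0.110, adjusted p = 0.0225 by edgeR). HOXD-AS2 beside HOXD9 (named after its value was seen) was at 4.88, 5.95 and 6.70 CPM in sgITPR3, against 3.50, 3.83 and 4.06 CPM in sgCtrl (log2 fold change 0.62 with SE 0.186, adjusted p = 0.0262 by edgeR). These calls were not kept in every fit with a library left out. That of HOXC-AS2 ended without sgCtrl replicate 3 (adjusted p = 0.0641) or sgITPR3 replicate 1 (0.134), and that of HAGLR without sgCtrl replicate 3 (0.0959) or sgITPR3 replicate 1 or 2 (0.0838 and 0.0833). That of HOXD-AS2 ended without sgCtrl replicate 1 (0.0835) or sgITPR3 replicate 2 or 3 (0.0845 and 0.101), and all 3 ended with ALB in the model. Their log2 fold changes were then 0.69 for HOXC-AS2, 0.37 for HAGLR and 0.71 for HOXD-AS2 (adjusted p = 0.130, 0.129 and 0.0700). HOTAIR, the RNA of cluster C that binds Polycomb proteins (also named after its value was seen), was at 22.4, 23.2 and 20.3 CPM in sgITPR3, against 20.2, 20.2 and 25.3 CPM in sgCtrl (log2 fold change 0.01, adjusted p = 0.973 by edgeR). Since the sources used here do not say whether counting used strand, reads of a HOX gene and of an antisense partner over the same bases cannot be told apart.

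**Figure D5:**
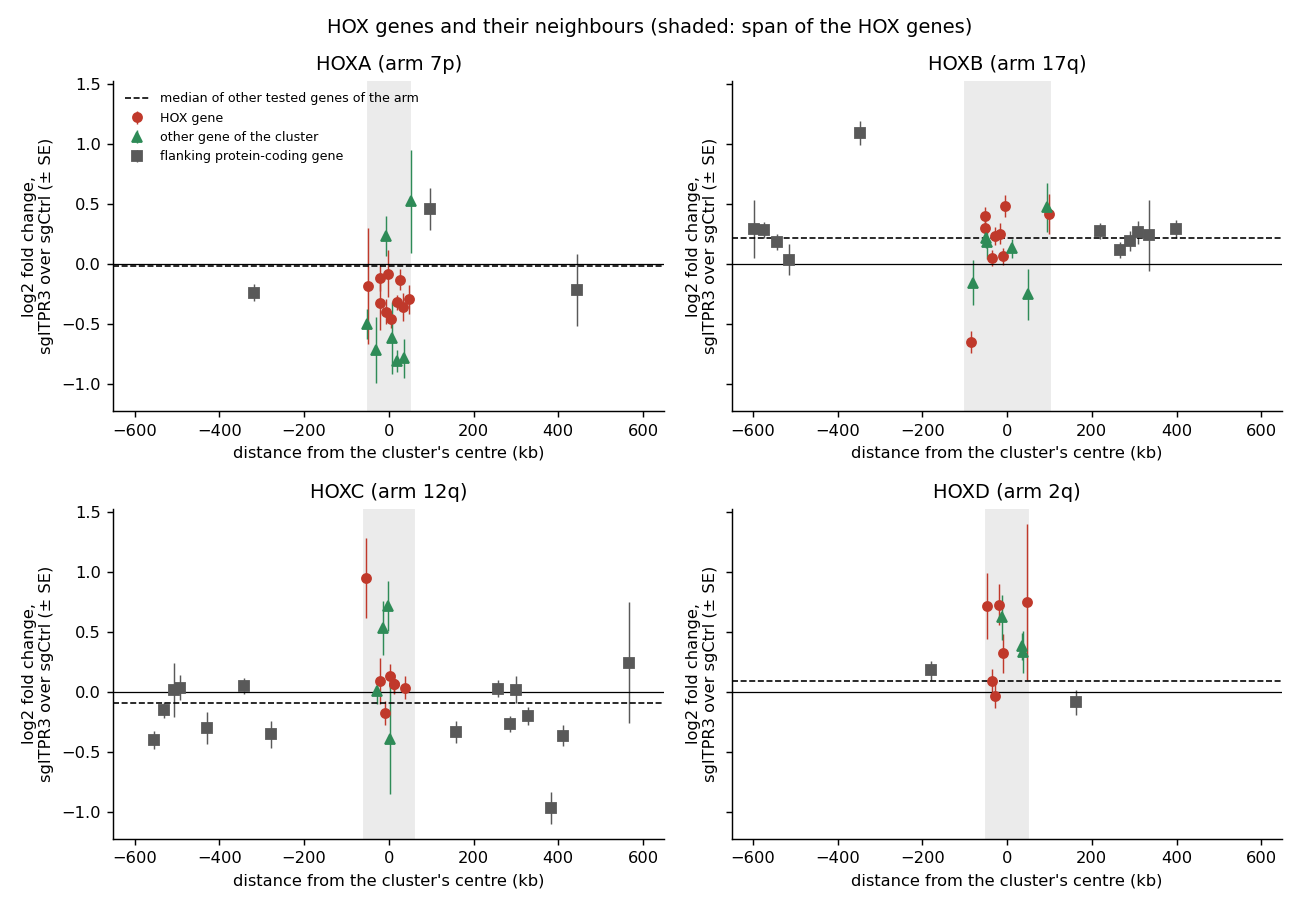
Log2 fold change (sgITPR3 over sgCtrl, ± SE) of the tested HOX genes (circles), the other tested genes of each cluster (triangles) and the tested protein-coding genes within 500 kb (squares), against the distance in kb from the centre of the cluster. The dashed line is the median of the other tested genes of the arm. All HOXA genes lie below 0, all tested neighbours of HOXB lie above 0 with SKAP1 highest at 1.09, and the neighbours of HOXC have a median of -0.20, against 0.065 for the HOXC genes.

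Shared exons limit how far neighbouring counts can be separated. In GENCODE release 29, 21 of the 32 tested HOX genes share exon bases with another gene, 15 of them on the same strand and 17 on the opposite strand, and 6 share bases within the last 500 exonic bases, where 3' tags fall. These 6 are HOXA4 (with HOXA-AS2 and a transcript that spans it), HOXA7 (HOXA-AS3), HOXB4 (HOXB3), HOXB6 (HOXB-AS3), HOXD1 (a transcript on the other strand) and HOXD11 (HOXD10). HOXB3 shares exon bases with HOXB4 and with HOXB6 on the same strand, so the split of tags between these genes is uncertain. HOXA-AS3, over the end of HOXA7, was at 7.90, 7.73 and 8.09 CPM in sgITPR3, against 5.16, 8.005 and 6.99 CPM in sgCtrl (log2 fold change 0.23, adjusted p = 0.345 by edgeR), and it was named for this overlap after its value was seen. Its level was under that of HOXA7 and its groups overlapped. A sense intronic gene over HOXB4, known here only by its identifier ENSG00000257178 and named for its overlap, was at 34.1, 46.7 and 54.02 CPM in sgITPR3, against 47.01, 35.8 and 35.5 CPM in sgCtrl (log2 fold change 0.19, adjusted p = 0.381 by edgeR). The genes annotated as spanning HOXA4, HOXA9 with HOXA10, and HOXC5 on the same strand had no count in any library. Among the untested genes, HOXC5, HOXD3 and HOXD4 also share bases of their last 500 exonic bases with genes on the same strand. Over the whole gene, such sharing covers 1081 of 1805, 2206 of 3548 and 1178 of 1464 exonic bases. Whether tags were lost there was not tested, so the low counts of these genes need not mean low transcript levels.

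Among TALE cofactors, 11 of 12 listed genes were tested, of which 2 rose, 2 fell and 7 did not pass, where 11.6% of all genes rose and 11.9% fell. MEIS3 rose 2.91-fold, at 31.4, 31.2 and 29.4 CPM in sgITPR3, against 10.3, 12.4 and 8.92 CPM in sgCtrl (log2 fold change 1.54 with SE 0.116, adjusted p = 3.78e-07 by edgeR), and MEIS2 fell, at 7.82, 7.77 and 7.89 CPM in sgITPR3, against 10.004, 11.2 and 12.3 CPM in sgCtrl (log2 fold change -0.51 with SE 0.130, adjusted p = 0.0106 by edgeR). Each group of MEIS3 values stood clear of the other, and its log2 fold change was larger than that of any tested HOX gene. PBX4 fell, at 19.8, 20.7 and 18.3 CPM in sgITPR3, against 39.5, 36.4 and 32.9 CPM in sgCtrl (log2 fold change -0.89 with SE 0.0948, adjusted p = 1.25e-05 by edgeR), while PBX3 rose, at 47.98, 51.999 and 44.7 CPM in sgITPR3, against 42.5, 37.7 and 37.2 CPM in sgCtrl (log2 fold change 0.30 with SE 0.0852, adjusted p = 0.0189 by edgeR). The PBX3 call ended without sgCtrl replicate 3 (adjusted p = 0.0738) or sgITPR3 replicate 1 or 2 (0.0551 and 0.117). With ALB in the model the calls of PBX3 and MEIS2 ended (adjusted p = 0.0870 and 0.0846), at log2 fold changes of 0.31 and -0.49. Of the ParaHox genes, relatives of the HOX clusters, 3 of 6 were tested. CDX2, which sets intestinal identity, rose, at 63.3, 62.4 and 53.6 CPM in sgITPR3, against 51.1, 42.8 and 47.6 CPM in sgCtrl (log2 fold change 0.34 with SE 0.0882, adjusted p = 0.0115 by edgeR). PDX1, a gene of pancreas and duodenum, fell, at 4.40, 6.03 and 3.35 CPM in sgITPR3, against 8.50, 7.86 and 6.73 CPM in sgCtrl (log2 fold change -0.73 with SE 0.202, adjusted p = 0.0171 by edgeR). GSX1 stood under 1 CPM in both groups by its mean and did not pass (log2 fold change -0.10, adjusted p = 0.903 by edgeR). The CDX2 call ended without sgITPR3 replicate 1 or 2 (adjusted p = 0.0598 and 0.0617), and that of PDX1 without sgCtrl replicate 1 (0.0625) or sgITPR3 replicate 1 or 3 (0.0573 and 0.0632).

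Of 22 tested genes of the trithorax side, which act in HOX activation, 4 rose, 0 fell and 18 did not pass (median log2 fold change 0.061). The share over all genes was 11.6% higher and 11.9% lower. KMT2A, the methyltransferase best known for keeping HOX genes active, was at 111, 117 and 122 CPM in sgITPR3, against 95.5, 97.05 and 91.6 CPM in sgCtrl (log2 fold change 0.30 with SE 0.0675, adjusted p = 0.00527 by edgeR). AFF1, a partner in its elongation complex and in leukaemia fusions, was at 46.6, 47.2 and 40.7 CPM in sgITPR3, against 36.9, 28.4 and 31.4 CPM in sgCtrl (log2 fold change 0.48 with SE 0.101, adjusted p = 0.00337 by edgeR). KMT2C rose as well, at 120.1 ± 2.51 CPM in sgITPR3 and 98.9 ± 4.82 CPM in sgCtrl (log2 fold change 0.28 with SE 0.0666, adjusted p = 0.00732 by edgeR). MEN1, whose product menin tethers KMT2A, was at 49.1 ± 2.72 CPM in sgITPR3 and 41.3 ± 3.64 CPM in sgCtrl (log2 fold change 0.25 with SE 0.0846, adjusted p = 0.0466 by edgeR). The MEN1 call ended without sgCtrl replicate 1 (adjusted p = 0.181) and without sgITPR3 replicate 1, 2 or 3 (0.0559, 0.158 and 0.138), and those of MEN1 and KMT2C with ALB in the model (0.148 and 0.102, at log2 fold changes of 0.26 and 0.22). MLLT3 did not pass (log2 fold change 0.30, adjusted p = 0.0710 by edgeR).

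All 26 genes of the Polycomb side, which act in HOX silencing, were tested, and 3 rose, 3 fell and 20 did not pass (median log2 fold change 0.030), which is close to the 11.6% higher and 11.9% lower of all genes. Among them was RBBP7, a histone chaperone shared by several complexes (named after its value was seen, log2 fold change 0.20, adjusted p = 0.0384 by edgeR). Its call ended without any library but sgCtrl replicate 1 (adjusted p = 0.0502 to 0.143) and with ALB in the model (0.0733, log2 fold change 0.24). PHC2 fell, at 79.3, 75.96 and 86.03 CPM in sgITPR3, against 122, 112 and 109.8 CPM in sgCtrl (log2 fold change -0.51 with SE 0.0733, adjusted p = 0.000166 by edgeR), and BMI1, a core ring finger subunit, fell, at 15.9, 15.9 and 15.7 CPM in sgITPR3, against 22.2, 22.6 and 24.1 CPM in sgCtrl (log2 fold change -0.54 with SE 0.0936, adjusted p = 0.000848 by edgeR). Of the CBX subunits that read methylated histone H3, CBX2 rose, at 20.8 ± 1.32 CPM in sgITPR3 and 14.2 ± 1.44 CPM in sgCtrl (log2 fold change 0.55, adjusted p = 0.00221 by edgeR), while CBX6 fell, at 164 ± 5.20 CPM in sgITPR3 and 203 ± 12.9 CPM in sgCtrl (log2 fold change -0.30, adjusted p = 0.00527 by edgeR). CBX2 lies on 17q, whose other genes had the higher median given above. The CBX6 call ended with ALB in the model (log2 fold change -0.26, adjusted p = 0.0570).

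In retinoic acid signalling, 10 of 17 listed genes were tested, and 4 fell, 0 rose and 6 did not pass (median log2 fold change -0.12), where 11.9% of all genes fell and 11.6% rose. DHRS3, a retinal reductase that retinoic acid itself induces, fell 1.95-fold, at 13.7, 12.5 and 15.5 CPM in sgITPR3, against 29.6, 26.8 and 24.6 CPM in sgCtrl (log2 fold change -0.96 with SE 0.110, adjusted p = 2.23e-05 by edgeR). RDH10, which oxidises retinol, was at 14.2, 14.3 and 13.5 CPM in sgITPR3, against 20.3, 18.8 and 20.1 CPM in sgCtrl (log2 fold change -0.50 with SE 0.0991, adjusted p = 0.00235 by edgeR), and the receptor gene RARG was at 10.9 ± 0.564 CPM in sgITPR3 and 15.4 ± 1.09 CPM in sgCtrl (log2 fold change -0.50 with SE 0.113, adjusted p = 0.00540 by edgeR). ALDH1A3, which makes retinoic acid from retinal, was at 13.7 ± 1.39 CPM in sgITPR3 and 17.6 ± 0.953 CPM in sgCtrl (log2 fold change -0.36 with SE 0.111, adjusted p = 0.0300 by edgeR). Groups of DHRS3 and of RDH10 stood apart without overlap. The ALDH1A3 call ended without sgCtrl replicate 1 or 3 (adjusted p = 0.0502 and 0.102) and without sgITPR3 replicate 1 or 3 (0.105 and 0.0958), and with ALB in the model those of RARG and ALDH1A3 ended (0.0590 and 0.219, at log2 fold changes of -0.46 and -0.30). ALDH1A1 did not pass (log2 fold change 1.28, adjusted p = 0.151 by edgeR), and without sgCtrl replicate 2, the sgCtrl library with the most ALB, its log2 fold change was 3.30 (adjusted p = 0.000161). It lay at 3.15, 1.86 and 1.44 CPM in sgITPR3, against 0.215, 2.19 and 0.214 CPM in sgCtrl.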

How the data were processed

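The values are the gene counts as deposited by the authors. Per the submitters' processing notes, reads were aligned to GRCh38 with STAR 2.6.0a and counted with featureCounts 1.6.3, and DESeq2 is named. As to the annotation release, strand setting and treatment of mouse or multiply aligned reads, these are details not given in the sources used here. Of 58884 identifiers, 58876 received a symbol and 58611 a position in GENCODE release 29.

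The filter was that of filterByExpr (minimum count 10), and 15804 genes passed it. Counts were fitted with edgeR 4.0.16 in R 4.3.3 by the quasi-likelihood F test with TMM scaling and no covariate, over all genes at once, with Benjamini and Hochberg adjustment over all of them and a threshold of 0.05. The SE is the absolute log2 fold change over the square root of F. Alternatives were RLE scaling, other filters, a replicate block, DESeq2 1.42.0, limma-voom (limma 3.58.1) and leaving out each library, and, added after the data were seen, ALB as a covariate and, for the HOX genes only, the arm median as null value. Intervals of depth cover counting error only. The procedure was tested on simulated data. Within groups, the correlation of libraries on the log2 scale was 0.982 to 0.991, and none repeated another.

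Members and lists were chosen with earlier results of these data known. Every tested HOX gene is given by library, and up to 5 genes with the smallest p are named from each other list (3 per flank). Apart from a list of other, mostly non-coding genes, genes of the clusters that are not among the 38, and some genes of the other lists, are not reported here.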

Additional observations from a re-analysis of the deposited data

How the results depend on the processing

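The number of HOX genes called stayed within 1.5 times that reported (5 higher and 5 lower) under RLE scaling, both other filters, DESeq2 and limma-voom, and no called HOX gene changed sign in any alternative. With a library left out, 3 to 6 HOX genes were higher and 3 to 6 lower, and among all genes 1135 to 2121 were higher and 1196 to 2140 lower, the lowest of all 4 being reached when sgITPR3 replicate 2 was left out. Once ALB was in the model, 1012 genes were higher and 995 lower, with 3 HOX genes lower, and with the arm median as null value 3 HOX genes were higher. HOXA7, HOXA9, HOXB2 and HOXB9 were called in all 14 alternatives, and HOXB3 and HOXD9 in 13. The sums and shares by cluster and paralog class moved by less than 1 SD of the libraries in all 74 alternatives. The deviations of same-numbered libraries had correlations of -0.0503, 0.0130 and 0.0977, within the -0.118 to 0.115 of the other pairs. No pairing by number was thus seen, though so few libraries cannot exclude it. With the replicate block 6 HOX genes were higher and 5 lower, and 1896 and 1981 of all genes. Depth limits the genes under about 1 CPM (HOXA2, HOXD1 and the 6 untested ones), where a few counts decide a value. For HOXC5, HOXD3 and HOXD4 the shared exons given above are a further limit.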

Other observations

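Further ratios of paralogs within a library, which do not depend on scaling, are given here as values. The ratio of HOXA5 to HOXB5 counts was 0.234, 0.214 and 0.284 in the sgITPR3 libraries and 0.362, 0.306 and 0.327 in the sgCtrl libraries. That of HOXA3 to HOXB3 was 0.127, 0.129 and 0.104 in sgITPR3 and 0.161, 0.186 and 0.165 in sgCtrl, and that of HOXA4 to HOXB4 was 0.0656, 0.0637 and 0.109 in sgITPR3 and 0.115, 0.121 and 0.133 in sgCtrl. In all 3 pairs every sgITPR3 library lay below every sgCtrl library. HOXA3 and HOXA4 did not pass on their own, and their divisors HOXB3 and HOXB4 rose (log2 fold change 0.40 and 0.30). The ratios of these 2 pairs therefore do not show a fall of HOXA3 or HOXA4. The other tested genes of 17q, the arm of the HOXB genes, had a median log2 fold change of 0.22, and its part in these ratios was not tested. The CCAAT box in 16 of 19 distinct HOX promoter windows, against 32.02% of all distinct windows, was not tested for its relation to the changes.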
